A study of Mus musculus with 13 samples.

Results

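The 10 genes described here include the keratins of the basal layer (Krt5, Krt14, Krt15) and of the layers above it (Krt1, Krt10, Krt2). The others are the keratinocyte regulators Sfn and Trp63 and the basal anchoring genes Itga6 and Col17a1. These 10 of the 19938 genes on the arrays with a probe set of their own were picked by name, and for each gene the probe set with the highest mean was used. Only Sfn had more than 1 such probe set, so 11 probe sets covered the 10 genes.

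The skin was whole back skin of male C57Bl6 mice at postnatal day 46, labelled as being in telogen, the rest of the hair follicle. The mice had 12 h of light and 12 h of dark and free access to chow. Skin was taken every 4 h over 48 h, RNA of 3 mice was pooled for each collection, and each pool was read on 1 Affymetrix array, giving 13 arrays. Zeitgeber time (ZT) counts hours from lights on at ZT0, and lights went off at ZT12. ZT14, ZT18 and ZT22 fell in the dark (6 arrays) and ZT2, ZT6 and ZT10 in the light (7 arrays). Day 2 (hours 26 to 46) and day 1 (hours 2 to 22) had 6 arrays each, and hour 50 added another ZT2 array. Each array holds different mice, pooled before labelling, so the errors are spreads between pools and not between animals, and no mouse was followed over time.

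Keratins form filaments from paired type I and type II proteins. Dividing keratinocytes of the basal layer make keratin 5 with keratin 14, and keratin 15 is a further type I keratin of basal cells and of resting hair follicle stem cells. Cells that leave the basal layer switch to keratins 1 and 10. Keratin 2 belongs to the upper layers and in mice is known mainly from the ear, tail and sole. Trp63 encodes p63, the transcription factor that sets the epidermal programme. Integrin alpha 6 (Itga6) and collagen XVII (Col17a1) are parts of the hemidesmosome, which fixes the basal cell to the basement membrane. Sfn encodes 14-3-3 sigma, a p53-inducible protein of keratinocytes that can hold cells in the G2 phase before mitosis.

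Promoters are shown for the gene with a 24 h rhythm and for the flattest gene, because clock factors act through short DNA motifs. RefSeq windows (mouse build GRCm38.p6, 250 bases before to 50 bases after the start, written 5′ to 3′ on the strand of the gene) matched 6 of the 10 genes. Capitals mark AGGTCA, the half-site of nuclear receptors such as the REV-ERB and ROR proteins, or its reverse complement TGACCT. The Sfn window is chr4:133602119-133602418 and the Krt5 window is chr15:101712856-101713155, both on the minus strand.
Sfn: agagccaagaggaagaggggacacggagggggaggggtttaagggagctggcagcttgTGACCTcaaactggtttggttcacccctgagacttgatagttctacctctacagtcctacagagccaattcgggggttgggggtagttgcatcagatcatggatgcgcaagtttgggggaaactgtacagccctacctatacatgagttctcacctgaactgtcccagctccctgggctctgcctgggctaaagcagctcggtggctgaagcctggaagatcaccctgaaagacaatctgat
Krt5: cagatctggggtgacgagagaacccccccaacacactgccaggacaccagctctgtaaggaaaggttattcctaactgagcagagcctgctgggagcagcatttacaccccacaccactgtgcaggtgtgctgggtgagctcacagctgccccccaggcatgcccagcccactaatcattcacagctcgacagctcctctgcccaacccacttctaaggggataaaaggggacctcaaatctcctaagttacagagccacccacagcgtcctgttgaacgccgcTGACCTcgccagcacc

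On both strands, AGGTCA was found in 2 of the 6 windows, Sfn and Krt5, against 16.3% of all 32851 promoter windows. The E-box CACGTG, the site of BMAL1 and CLOCK, was in none of the 6, against 7.15% of all windows. The D-box TTATGTAA, the site of Dbp and its relatives, was also in none, against 0.938% of all windows. No motif of the 3 contains another, and a match is only a run of letters in a short window.

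Values are probe set intensities, and differences are in log2(intensity + 16). Intensities of different probe sets are not comparable as levels, so each gene is set only against itself. Krt2 fell among the dimmest 25% of genes, which were left out of the tests. The other 9 genes were tested with 14953 genes in all. In whole skin, as in any bulk tissue, fewer cells of a type and less RNA per cell cannot be told apart.

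Some pools stood apart. The ZT2 array of day 1 held the highest or lowest value of 41.0% of all tested genes and of 5 of the 10 epidermal genes, and the ZT22 array of day 1 held it for 31.9% and for 3. In the day 1 ZT2 array, the summed intensity of 11 dermal fibroblast markers was 66703, against 85583 to 97443 in the other 12 arrays, and that of 11 immune cell markers was 19996, against 24969 to 30032. The ZT22 array of day 2 had 47889 for 14 hair shaft markers, against 3782 to 6421 in the other 12, and whether that pool held skin that had left telogen was not tested.

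**Figure D1:**
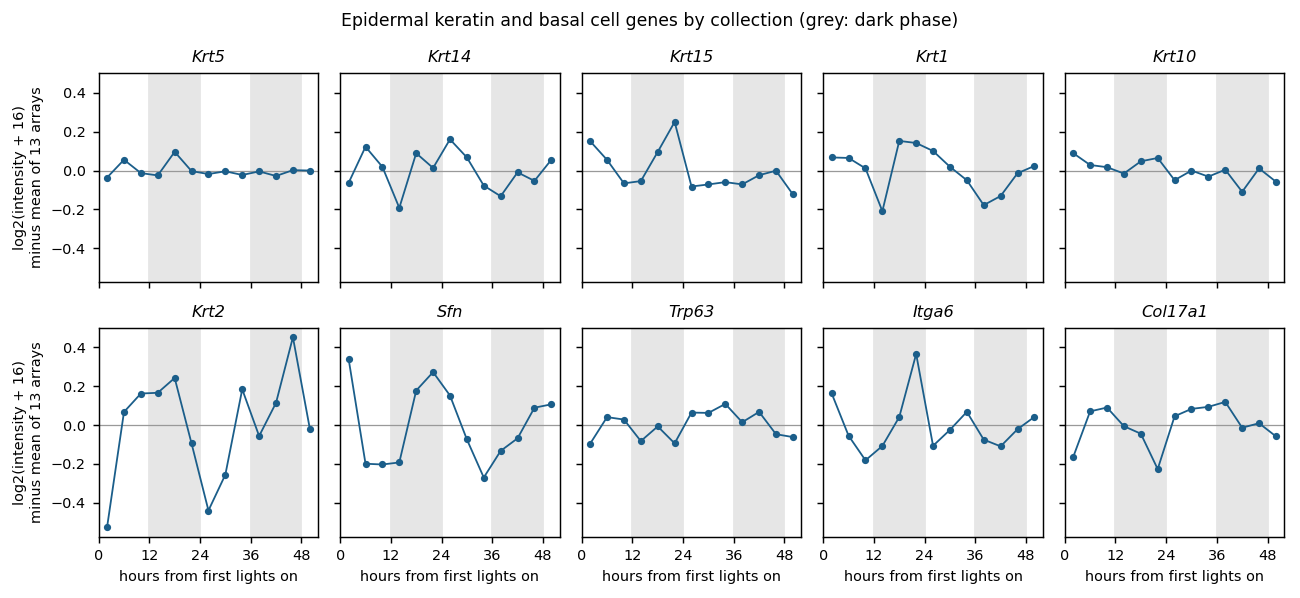
Log2(intensity + 16) of each of the 10 genes, as the difference from its mean over 13 arrays (vertical axis), against hours from the first lights on (horizontal axis). Each point is 1 pool of 3 mice, grey bands are the dark phase, and all panels share 1 scale. Sfn swings once per day, Krt5 and Krt10 stay near 0, and the dim Krt2 scatters most.

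Krt5, the type II keratin of basal cells, hardly moved. Its intensity was 14203, 15134, 14430.3, 14310.2, 15571 and 14533 at hours 2, 6, 10, 14, 18 and 22. On the next day it was 14382, 14523, 14333, 14517, 14282 and 14583 at hours 26 to 46, and 14563 at hour 50. The highest array was 1.10 times the lowest, where the median over all tested genes was 1.45. Only 4 tested genes had a smaller spread in log2 over the 13 arrays. The highest pools were at hours 18 and 6 of day 1, and no time of day stood clear of the others.

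Krt14, the type I partner of Krt5, had 8598, 9784, 9104, 7862, 9560.4 and 9068 on day 1. On day 2 it had 10046, 9416, 8514, 8196, 8927 and 8659, and the hour 50 array had 9339. The ZT14 arrays were the lowest of all 13 on both days. At ZT14 the mean was 8029 ± 236 (SD, n = 2), and at ZT6, the highest time, 9599.9 ± 260.2 (SD, n = 2). ZT6 overlapped with ZT18 and with ZT2, which had 9328 ± 724 (SD, n = 3).

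Krt15 lay in a narrower range on day 2 than on day 1. From ZT2 to ZT22 it had 8722, 8787, 8860.2, 8788, 9083 and 9229 on day 2, and 10259, 9594, 8821, 8893, 9872 and 10989 on day 1, with 8480.4 at hour 50. The day 2 and hour 50 pools at ZT2 were the lowest of the 13, and the day 1 pools at ZT22 and ZT2 were the highest.

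Krt1, the first type II keratin made above the basal layer, had 10994, 10974, 10572, 9071, 11663 and 11577 on day 1. It had 11251, 10632, 10133, 9269, 9577 and 10389 on day 2 and 10665 at hour 50. As for Krt14, both ZT14 arrays lay below the other 11. At ZT14 the mean was 9170.1 ± 140.1 (SD, n = 2), and at ZT22, the highest time, it was 10983 ± 839.6 (SD, n = 2), in overlap with every other time but ZT14. Both ZT14 arrays lay below the other 11 in 2 of the 9 tested genes, Krt14 and Krt1, a pattern noticed in the values, and in 3.68% of all tested genes. Shares for other times of day, or for high arrays, were not taken. Krt14 and Krt1 also ran together over the 13 arrays (Pearson r = 0.77), so they are not separate cases.

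Krt10, the type I partner of Krt1, was nearly as flat as Krt5, with a lowest, median and highest intensity of 13016, 14085 and 14945 over the 13 arrays. Both ZT22 arrays lay above both ZT14 arrays, every other pair of times overlapped, and 99 of 14953 genes had a smaller spread. Krt2 was dim, with 113 at hour 50, 80.0 to 162 on day 2 and 74.5 to 138 on day 1. Its highest array, at ZT22 of day 2, was 2.18 times its lowest, at ZT2 of day 1. Krt5, Krt14, Krt15, Krt1 and Krt10 lay among the brightest 1% of tested genes (150 genes), whose median ratio of highest to lowest array was 1.28. The part of brightness in their small spread was not tested.

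The main question of the collection was which transcripts follow a 24 h rhythm. Of the 9 epidermal genes tested, 1 passed, Sfn, against 2.13% of all tested genes (limma F test on a 24 h cosine and sine, Benjamini-Hochberg adjusted p under 0.05). Sfn had 6477, 4451, 4439, 4472, 5786 and 6181 on day 1. On day 2 it had 5684, 4856, 4236, 4660.5, 4875 and 5441, and the hour 50 array had 5507. It was high from the middle of the dark to the start of the light: the 7 arrays of ZT18, ZT22 and ZT2 lay between 4875 and 6477, above the 6 arrays of ZT6, ZT10 and ZT14, which lay between 4236 and 4856. That separation, noticed in the values, held in this direction for 0.522% of all tested genes.

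The fitted peak of Sfn was 22.9 ± 0.68 h after lights on, close to the end of the dark phase, where the curve stood 0.48 ± 0.09 above its trough in log2 (SE, n = 13 arrays), or 1.40-fold, at an adjusted p of 0.0259 (limma). Fits to the separate days, with 6 arrays each, gave 1.30-fold with a peak at 23.7 h on day 2 and 1.54-fold with a peak at 22.5 h on day 1. The second Sfn probe set, which reads the same pools and is no independent replicate, ranged from 3617 to 5527. The annotation lists the same transcripts for both probe sets, and whether either also reads a near-identical copy was not tested. It gave 1.43-fold, a peak at 23.0 ± 0.60 h and an adjusted p of 0.0137 (limma), a check added after the data were seen.

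The call of Sfn was lost in 8 of 24 alternatives, although its peak-to-trough difference stayed between 0.44 and 0.54. With the 6 times of day as separate levels the adjusted p was 0.342 (limma), and it was 0.0517 without the day 1 ZT22 array, 0.0763 without the day 1 ZT10 array and 0.0715 without the day 1 ZT14 array. Without the day 1 ZT2 array, which held the highest value, the adjusted p was 0.0230, and without the day 2 ZT22 array, the one with the high hair shaft sum, it was 0.0184.

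**Figure D2:**
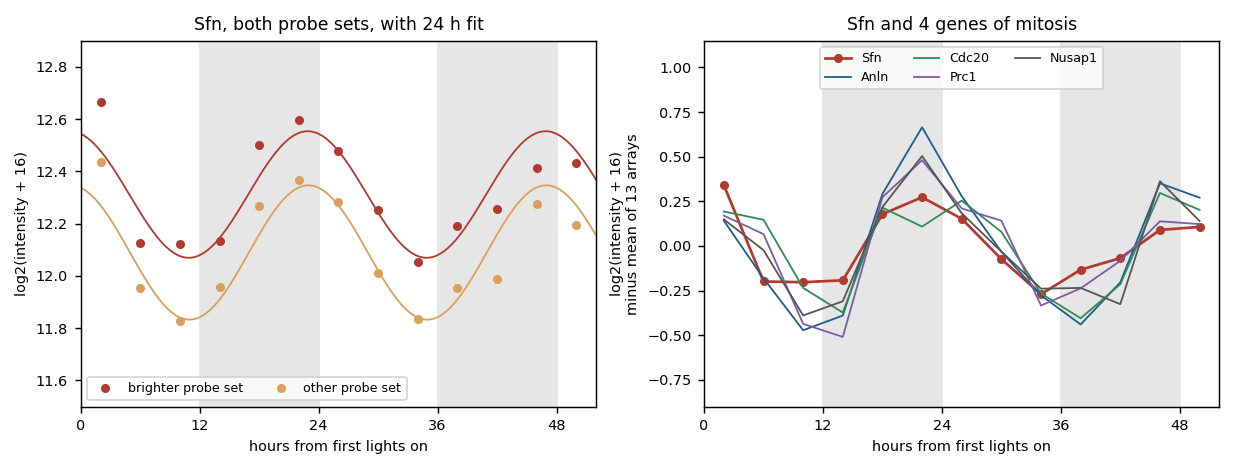
Left, log2(intensity + 16) of both Sfn probe sets (points, 1 per pool) with the fitted 24 h curves (lines) against hours from the first lights on. Right, Sfn and the mitosis genes Anln, Cdc20, Prc1 and Nusap1 as the difference from each gene's own mean over 13 arrays. Grey bands are the dark phase, and all 5 genes lie below their own mean at ZT10 and ZT14 of both days.

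Since 14-3-3 sigma acts at G2, its curve was set beside genes of G2 phase and mitosis. Of 22 tested genes of that list, 14 were rhythmic, against 2.13% of all tested genes. The median peak-to-trough fold was 1.51 over the list and 1.14 over all tested genes. The fitted peaks of 13 of the 14 fell within 6 h of the Sfn peak, and those of 11 within 2 h. The share of all rhythmic genes with a peak in these windows was not taken, so the counts cannot be read as particular to this list. Whether Sfn is tied to these genes was not tested. Anln (anillin, needed for cytokinesis) was highest at 23.2 h, with 1.84-fold between peak and trough and 0.00533 as its adjusted p (limma). The anaphase activator gene Cdc20 followed at 0.74 h, with 1.52-fold. Wee1, a kinase that delays mitosis and a known clock target, was the exception, with 2.17-fold and its peak at 11.7 h.

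No other 14-3-3 gene passed. Of the 6 genes of the family other than Sfn, 0 were called by limma, 0 had an unadjusted p under 0.05, and the median fold was 1.08. Ywhae reached 1.14-fold (adjusted p 0.356) and Ywhag 1.12-fold (adjusted p 0.490). Whether Sfn differed from them was not tested. Genes whose log2 values were most like those of Sfn over the 13 arrays, among 14952, were Aknad1 (Pearson r = 0.94), Cmtm6 (r = 0.94) and Fam124b (r = 0.93). These were rhythmic too, with folds of 1.89, 1.41 and 1.77 and fitted peaks at 23.1, 23.1 and 22.5 h. Such correlations are a description, since 13 pools ranked over many genes give high values.

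The keratins gave no 24 h call. A peak-to-trough value cannot be negative, so its SE does not measure the distance from no rhythm, which the F test weighs. From peak to trough the fitted curve of Krt5 spanned 0.02 ± 0.06 in log2 (SE, n = 13) and that of Krt10 spanned 0.02 ± 0.06, with adjusted p-values of 0.978 and 0.955 (limma). Krt1 had 0.20 ± 0.08, with a fitted peak at 1.43 h and an adjusted p of 0.296. Krt14 had 0.16 ± 0.08, with a fitted peak at 2.64 h and an adjusted p of 0.391. Krt15 had 0.15 ± 0.09 and an adjusted p of 0.510. Krt2, in a fit without the filter on dim genes, had 0.42 ± 0.17, a fitted peak at 15.5 h and an adjusted p of 0.325. The median peak-to-trough fold of the 9 tested genes was 1.12, below the 1.14 of all genes.

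Col17a1 and Trp63 were not called, and their fitted peaks fell in the light. Col17a1 had 5994, 7057, 7155, 6692, 6515 and 5739 on day 1, and 6935, 7120.2, 7172, 7300.2, 6656 and 6764 on day 2, with 6452 at hour 50. Its difference was 0.21 ± 0.07 in log2 (SE, n = 13), with an unadjusted p of 0.0438 and an adjusted p of 0.262 (limma). Its fitted peak was at 10.1 ± 1.32 h. Single-day fits of Col17a1 gave 1.08-fold on day 2 and 1.23-fold on day 1. At an unadjusted p under 0.05 stood 2 of the 9 genes, Sfn and Col17a1, and 18.5% of all genes. Trp63 had 0.10 ± 0.07 and a fitted peak at 9.60 ± 2.47 h, with an adjusted p of 0.573 and intensities between 3647 and 4206. Itga6 had 0.20 ± 0.10 and an adjusted p of 0.433.

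**Figure D3:**
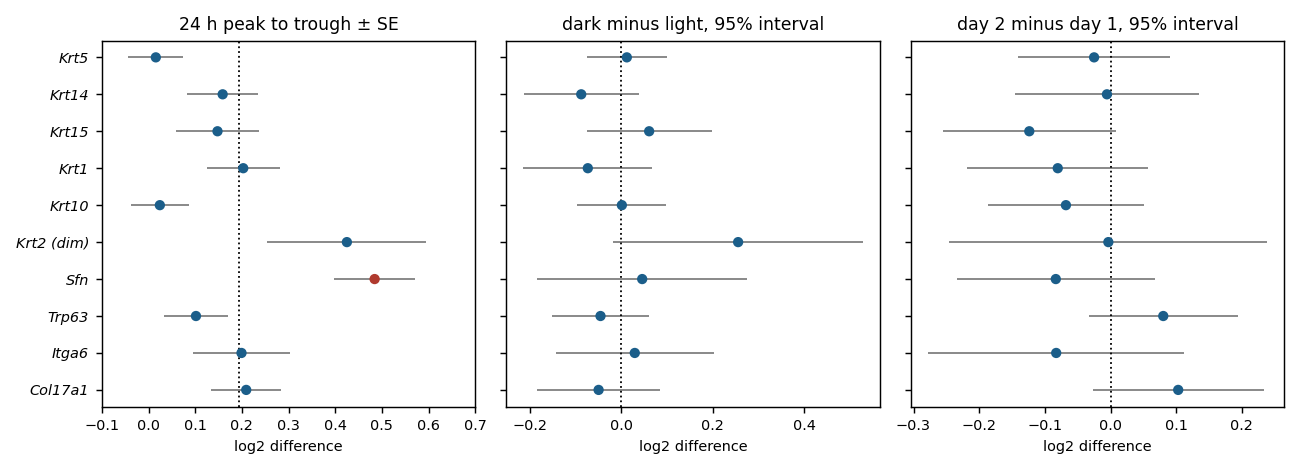
Log2 differences of the 10 genes for the 24 h curve (left, peak to trough, bars are SE), dark minus light (middle) and day 2 minus day 1 (right, bars in both are 95% intervals). Peak-to-trough values cannot be negative, and their SE bars are no test of a rhythm. Red marks an adjusted p under 0.05, the dotted line is the median of all genes on the left and 0 elsewhere, and Krt2 comes from the fit without the filter. Sfn at 0.48 is the only red point, and 0 lies within every interval of the middle and right panels.

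Partner genes of these 10 genes were read in the same test, and the 10 are not counted among them. The shares over all tested genes, against which each count is to be read, were 2.13% called and 18.5% at an unadjusted p under 0.05. Of 11 genes of the hemidesmosome and basement membrane, 0 were called by limma and 2 had an unadjusted p under 0.05, with a median fold of 1.10. These were Dst, which encodes the linker from keratin filaments to the hemidesmosome, with 1.30-fold, a fitted peak at 9.26 h and an adjusted p of 0.0980, and the laminin gene Lama3, with 1.22-fold, 2.75 h and 0.113. Of 11 desmosome genes, 0 were called and 0 had an unadjusted p under 0.05. Dsg3, a desmoglein of the lower layers, had 1.14-fold and an adjusted p of 0.289, and Dsg2 had 1.17-fold and 0.377. Of 15 other epithelial keratins tested, 0 were called and 2 had an unadjusted p under 0.05, Krt6a and Krt13. Of 12 p63 partners and targets, 0 were called and 3 had an unadjusted p under 0.05. Bnc1, a basal cell transcription factor, had 1.29-fold and an adjusted p of 0.121, and Satb1, a chromatin organiser downstream of p63, had 1.22-fold and 0.224.

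Of 13 suprabasal and granular markers, 2 were rhythmic and 4 had an unadjusted p under 0.05, against 2.13% and 18.5% of all tested genes. Ivl (involucrin, a cornified envelope precursor) gave 1.60-fold around a 21.5 h peak, and Calml3, a calmodulin-like gene of differentiating keratinocytes, gave 1.51-fold around a 0.45 h peak, with adjusted p-values of 0.00499 and 0.0201 (limma). Casp14 and Tgm1, also at an unadjusted p under 0.05, had fitted peaks in the light, at 6.48 and 6.29 h. Their adjusted p-values were 0.143 and 0.215 (limma). The median fold of the 13 markers was 1.13. Krt1 and Krt10, the keratins of the layers above the basal layer, did not pass. Among other cell types, 2 of 9 adipocyte markers were called (Plin4 and Cidec) and 1 of 6 melanocyte markers (Mlana). By limma, 0 were called of 7 resting follicle stem cell, 13 hair shaft, 8 sebaceous gland, 11 dermal fibroblast, 14 skeletal muscle and 11 immune cell markers, with 1, 0, 0, 0, 3 and 0 at an unadjusted p under 0.05. All 16 measured genes of the core clock were called, with a median fold of 3.96.

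The dark minus light test called none of these genes. Of the 9, 0 were called by limma and 0 had an unadjusted p under 0.05, against 0.0201% and 8.28% of all tested genes. Krt14 ranged from 7862 to 9560.4 (median 8793) in the 6 dark arrays and from 8514 to 10046 (median 9339) in the 7 light arrays. Its difference was -0.09 in log2, with a 95% interval of -0.21 to 0.04. Krt5 had 0.01 (-0.08 to 0.10) and Krt10 had 0.00 (-0.10 to 0.10), and both signs turn under quantile normalization. Sfn had 4472 to 6181 (median 5158) in the dark arrays and 4236 to 6477 (median 4856) in the light arrays, a difference of 0.05 (-0.18 to 0.28). High pools of Sfn thus stood on both sides of lights on.

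The last comparison was between the days. By limma, with time of day as a term, 0 of 14953 genes passed for day 2 minus day 1 (0.0%), and 6.46% had an unadjusted p under 0.05, none of them among the 9. Trp63 and Col17a1 were higher on day 2 at all 6 times of day, as were 3.02% of all tested genes. For Trp63, the day 2 arrays lay between 3773 and 4206 (median 4075) and the day 1 arrays between 3647 and 4011 (median 3780.1), in overlap. The difference of Trp63 was 0.08 in log2 (95% interval -0.03 to 0.19, adjusted p 0.604, limma). For Col17a1 it was 0.10 (-0.03 to 0.23, adjusted p 0.604). At single times, Col17a1 differed most at ZT22, with 6764 on day 2 and 5739 on day 1, and at ZT2, with 6935 on day 2 and 5994 on day 1.

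Krt15 was lower on day 2 at 5 of 6 times, by 0.12 on the log2 scale as a mean (-0.26 to 0.01, adjusted p 0.604, limma). The day 2 arrays lay between 8722 and 9229 and the day 1 arrays between 8821 and 10989, in overlap. Krt10 was also lower at 5 of 6 times, with a difference of -0.07 (-0.19 to 0.05). Krt5, Krt14, Krt1 and Sfn had differences of -0.03, -0.01, -0.08 and -0.08, and the sign for Krt14 turns under quantile normalization.

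**Figure D4:**
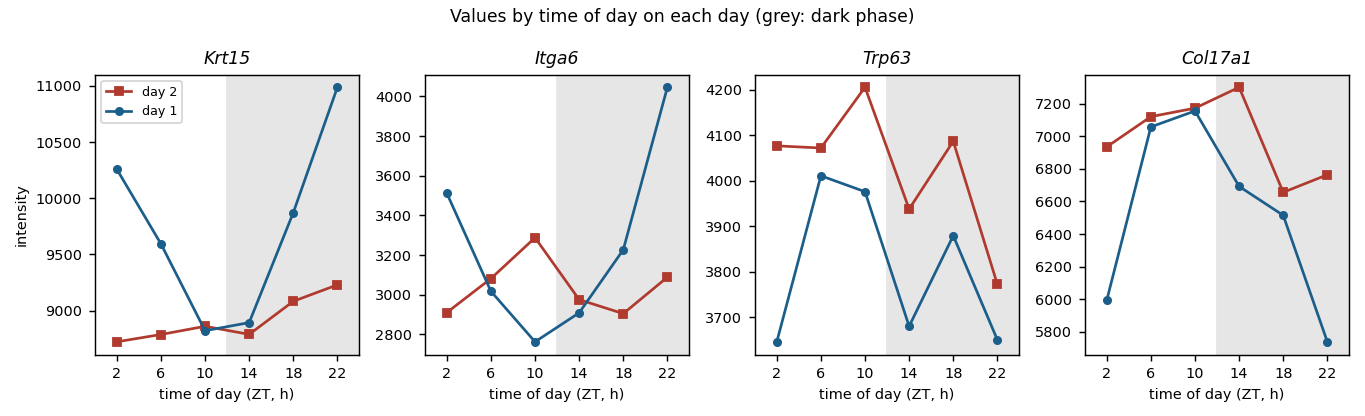
Intensity of Krt15, Itga6, Trp63 and Col17a1 by time of day, on day 2 (red squares) and day 1 (blue circles), 1 pool per point, with the dark phase in grey and a separate vertical scale for each gene. At ZT22 and ZT2, Krt15 and Itga6 lie lower and Col17a1 lies higher on day 2, and Trp63 lies higher on day 2 at all 6 times.

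Itga6 had unlike values on the 2 days, although the difference between its daily curves did not pass adjustment. On day 2 it had 2909.7, 3081, 3287, 2975, 2904 and 3088 from ZT2 to ZT22, and on day 1 it had 3512, 3017, 2762, 2908, 3227 and 4046. At hour 50 it had 3229. The single-day fits gave 1.07-fold with a peak at 8.85 h on day 2 and 1.41-fold with a peak at 22.8 h on day 1. The test of the difference between the daily curves had an unadjusted p of 0.00746 and an adjusted p of 0.387 (limma). In that test 0 of 14953 genes passed (0.0%), and 12.8% had an unadjusted p under 0.05, of the 9 only Itga6. Without the day 1 ZT22 array the adjusted p was 0.685. The day 1 pools at ZT22 and ZT2 held the 2 highest values of Itga6, Krt15, Krt10 and Sfn and the 2 lowest of Col17a1 and Trp63. That pattern was noticed in the values. These pools held the highest or lowest value of 31.9% and 41.0% of all tested genes. The share of all tested genes with both extremes in these 2 pools was not taken, so the pattern cannot be read as particular to the epidermal genes. The ZT2 pool of the 2 had the low sums of fibroblast and immune markers given above. It also had the lowest sum of 7 resting follicle stem cell markers other than Krt15 and Col17a1, with 15864 against 19685 to 23082 in the other 12 arrays, and the highest sum of 13 suprabasal markers, with 78673 against 68743 to 77941. The part of tissue makeup in these values was not tested.

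Among 6 gene pairs compared over the 13 arrays, 1 passed adjustment. Itga6 and Col17a1, genes of the same junction, ran opposite, with Pearson's r = -0.80 (permutation p 0.00215, adjusted 0.0129) and Spearman's rho = -0.47 (permutation p 0.104, adjusted 0.156). Without the 2 arrays farthest from the median of Col17a1, the pools at ZT22 and ZT2 of day 1, r was -0.28, with a permutation p of 0.396 and an adjusted p of 0.608 over the 6 pairs. Much of the r over 13 arrays thus came from those pools. Leaving out arrays by their Col17a1 values also narrows the range of Col17a1. A relation in the other 11 arrays was therefore neither shown nor excluded. Over the 13 arrays, Col17a1 also had r = -0.81 with Sfn and -0.77 with Krt15, and 0.76 with Trp63. A negative r with Col17a1 was thus not particular to Itga6. Sfn and Trp63 had r = -0.59 and rho = -0.55 (permutation p 0.0360 and 0.0508, adjusted 0.108 and 0.155). Leaving out the 2 arrays farthest from the median of Sfn gave r = -0.31.

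Of the other 4 pairs, none passed adjustment. The 2 farthest arrays were taken from the median of the gene named first, so they differed between these pairs. The filament partners Krt5 and Krt14 had r = 0.48 and rho = 0.53 (permutation p 0.0944 and 0.0679, adjusted 0.142 and 0.155). Without the 2 farthest for Krt5, r was 0.26. The filament partners Krt1 and Krt10 had r = 0.49 and rho = 0.51 (permutation p 0.0884 and 0.0775, adjusted 0.142 and 0.155). Leaving out the 2 farthest for Krt1, both of ZT14, gave r = 0.68. For the type I keratins Krt15 and Krt14 r was 0.06 and rho -0.14 (permutation p 0.850 and 0.642, adjusted 0.850 and 0.770). The value of r without the 2 farthest for Krt15 was 0.23. For Krt2 and Krt10 r was -0.17 and rho -0.09 (permutation p 0.581 and 0.780, adjusted 0.698 and 0.780). With the 2 farthest for Krt2 left out, r was -0.01.

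By Pearson's r over the 13 arrays among 14952 genes, given as a description, the 3 genes most like Krt10 were Zfp418 (r = 0.93), Krt77 (r = 0.93), a further keratin gene, and Ei24 (r = 0.92). Krt77 lay between 13267 and 15155. For Krt14 they were Coro1c and Wdr1, which encode regulators of actin filaments, and Ccar2, at r = 0.92, 0.90 and 0.90. For Krt15 they were Piga, Cdca7 and Strap, at r = 0.94, 0.93 and 0.91. None of these 9 genes was rhythmic by limma, with adjusted p-values of 0.231 to 0.939.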

How the data were processed

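Whole-skin RNA of 13 pools was measured on Affymetrix arrays. The values are linear probe set intensities as the authors deposited them in the series matrix, made, per the submitters' processing notes, with Affymetrix Expression Console 1.1.1 and the PLIER 2.0 algorithm. For background correction, scaling between arrays and annotation build, details are not given in the sources used. Array medians lay between 353.8 and 392.8, and 0 of the array pairs were duplicates. Precision is limited by how many arrays there are.

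Of 35557 probe sets, 21789 had 1 gene symbol in GEO's platform annotation, 1621 had several and 12147 were unnamed there. For 21698 the symbol came from RefSeq gene tables (GRCm38.p6). The brightest probe set stood for each of 19938 genes, of which 999 had several. Of log2(intensity + 16), the dimmest 25% of genes were left out, and the other 14953 were fitted with lmFit and eBayes in limma 3.58.1 (R 4.3.3), with Benjamini-Hochberg adjustment over all of them. Tests were a 24 h cosine and sine, dark minus light, day 2 minus day 1 with time of day as 6 levels, and the difference between the daily curves. The fits were tested on simulated data. Correlations of log2 values used 100000 two-sided permutations.

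All 10 member genes were named. From each gene list, genes called in any test (at most 4, by smallest p) and the 2 with the smallest p for the 24 h rhythm could be named, as could the 3 genes most correlated with each of Krt14, Krt15, Krt10 and Sfn. Wee1, Casp14 and Tgm1 were named after their values were seen. The members and the gene lists were chosen with earlier results of these data known. Alternatives were other offsets, quantile normalization, other filters, the mean of a gene's probe sets, time of day as 6 levels, day as a block and each array left out. The labels number no replicates. The day of collection pairs arrays of the same ZT, and these are different mice.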

Additional observations from a re-analysis of the deposited data

Results flagged for a closer look

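Within the 6 dark or 7 light arrays, and within the 6 arrays of each day, 40 sets of values of the 10 genes were searched for a pool that lay far from the rest, and 3 held one. Chance gives about 1 in 20. Krt5 had 15571 in the day 1 ZT18 array, above all other dark arrays, and 15134 in the day 1 ZT6 array, above all other light arrays. Itga6 had 4046 in the day 1 ZT22 array, above all other dark arrays.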

How the results depend on the processing

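The count of rhythmic genes over the whole table, 318, was 211 with day as a replicate block and 44 with the 6 times of day as a factor. In the block the hour 50 array formed a level of its own and did not shape the curve. The Sfn difference was thus 0.495 both with the block and without that array. The count lay between 126 and 414 with 1 array left out, and the Sfn difference then lay between 0.44 and 0.54. It was 192, 132 and 128 without the day 1 arrays of ZT6, ZT10 and ZT14, 195, 179, 195 and 126 without the day 2 arrays of ZT2, ZT6, ZT10 and ZT14, and 203 without the hour 50 array. With the block the adjusted p of Sfn was 0.0413, so its call stood. With the 6 times as a factor the Sfn difference was 0.44, short of the threshold. The cause was not tested. Without the day 2 arrays of ZT2, ZT6, ZT10 or ZT14, the adjusted p of Sfn was 0.0532, 0.0517, 0.0691 or 0.0599. For dark minus light, 3 genes passed, 1 with the dimmest 50% left out, and between 1 and 16 with 1 array left out (6 without day 1 ZT2, 16 without day 1 ZT22, 1 without day 1 ZT14 and 1 without day 2 ZT18). Small differences that missed the threshold turned sign. For dark minus light, Krt5 had -0.014 and Krt10 -0.0079 under quantile normalization, and Krt10 had -0.0086 with the day block. With 1 array left out, Krt5 lay between -0.0062 and 0.022, Krt10 between -0.012 and 0.023, Sfn between -0.0043 and 0.11, and Itga6 between -0.041 and 0.059. For day 2 minus day 1, Krt14 had 0.010 under quantile normalization and lay between -0.051 and 0.013 with 1 array left out. The adjusted p of the Itga6 difference between days lay between 0.180 and 0.822 over its alternatives. Pools of 3 mice, 2 or 3 per time of day, cannot show differences smaller than the intervals given.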

Other observations

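Krt6a, a keratin of the inner hair follicle and of stressed epidermis, had its highest 2 values at ZT14, with 3784 on day 2 and 3115 on day 1, against 1496 to 2946 in the other 11 arrays. Its fitted curve had 1.58-fold between peak and trough and its maximum at 12.3 h, just after lights off, where Krt14 and Krt1 were low. The adjusted p was 0.161 (limma). Over 23 alternatives it lay between 0.0363, with day as a block, and 0.579, and only 1 of them passed. Krt13, a keratin of stratified mucosa, had its fitted maximum at 15.1 h (adjusted p 0.253, limma).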
